A study of Homo sapiens with 5 samples.

Results

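Kinesins were examined in HEK293 cells, a human embryonic kidney line, that carried either a PRL-1 construct or the empty pcDNA4 plasmid. A gene was taken as a kinesin when its symbol was KIF with a number, or KIFC1 to KIFC3, and when the probe set was annotated to that gene alone. By this rule 41 of 19775 named genes on the array were kinesins, measured by 85 probe sets. They were divided by known role into 13 transport kinesins, 14 mitotic kinesins and 14 others.

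HEK293-vector cells (3 arrays) were compared with cells labelled HEK293-PRL-1 (2 arrays), to ask which transcripts differ when PRL-1, a small prenylated tyrosine phosphatase encoded by PTP4A1, is stably overexpressed. Both lines were grown untreated in the same serum-containing medium, and each array held RNA of a separate culture. Another HEK293-PRL-1 array had been left out by the authors because its RNA showed no raised PRL-1 by qRT-PCR. All cultures of a group came from the same stable line. Effects of the transgene and of anything else that sets these lines apart therefore cannot be told apart, and the p-values reflect how much cultures of a line varied.

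Kinesins are ATP-driven motors that step along microtubules, most of them towards the plus end. Transport kinesins of the KIF1, KIF3 and KIF5 groups carry vesicles, organelles and ciliary cargo, often over long distances in axons. Mitotic kinesins build and move the spindle, align chromosomes and complete cytokinesis, and many are transcribed late in the cell cycle.

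The promoters of the mitotic kinesins are shown first because they hold a known cell cycle element more often than those of the transport kinesins. Windows from 250 bases before to 50 bases after a transcription start came from RefSeq on GRCh38.p14, and 33 of the 41 genes had at least 1. A pair of short elements known from late cell cycle genes was searched on both strands: CHR, written TTTGAA or TTCAAA, and the CCAAT box, written CCAAT or ATTGG. CHR letters were present in 9 of 15 windows of mitotic kinesins (60%), against 15.2% of 35116 windows of all genes. Among transport kinesins 1 of 16 windows held them (6.25%), that of KIF5B, and among the other kinesins 0 of 11 did. CCAAT box letters were present in 10 of 15 mitotic windows (66.7%), 5 of 16 transport windows (31.2%) and 4 of 11 windows of the others (36.4%), against 34.6% of all windows. A match describes the letters in the window and is no evidence of a bound factor. The 70 bases before the start are printed for the 4 mitotic kinesins that held both elements there, with each match in capitals and none overlapping another:
KIF11, chr10:92593060-92593129, plus strand: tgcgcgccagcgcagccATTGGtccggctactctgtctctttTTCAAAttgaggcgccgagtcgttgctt
KIF4A, chrX:70290034-70290103, plus strand: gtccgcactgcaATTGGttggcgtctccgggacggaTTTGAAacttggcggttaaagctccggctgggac
KIF18A, chr11:28108157-28108226, minus strand: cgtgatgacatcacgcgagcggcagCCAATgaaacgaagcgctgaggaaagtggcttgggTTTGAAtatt
KIF23, chr15:69414279-69414348, plus strand: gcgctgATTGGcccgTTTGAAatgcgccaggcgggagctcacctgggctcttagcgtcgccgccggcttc

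KIF1A, the kinesin that differed between the lines, has 3 annotated starts, and none of their windows held either element. The 70 bases before each are printed for comparison, with no match to mark:
KIF1A, chr2:240820220-240820289, minus strand: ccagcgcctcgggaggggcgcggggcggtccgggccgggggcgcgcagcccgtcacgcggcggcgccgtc
KIF1A, chr2:240821040-240821109, minus strand: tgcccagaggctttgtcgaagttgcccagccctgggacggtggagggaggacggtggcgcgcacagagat
KIF1A, chr2:240821404-240821473, minus strand: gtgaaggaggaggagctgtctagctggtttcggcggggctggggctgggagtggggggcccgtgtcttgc

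The signal is the MAS5 intensity of a probe set, a linear value for which every array had been scaled to the same trimmed mean. Probe sets at a signal of at least 100 on at least 2 arrays were tested with limma on the log2 scale, which kept 66 of the 85 kinesin probe sets and 35 of the 41 genes. Of the 66, 62 passed with arrays of both groups. The other 4, of KIF19, KIF25 and KIF6, passed through vector arrays alone, so a lower value was built into their selection. Among the 62, KIF1A 225482_at had 1 vector array and both arrays labelled PRL-1 at 100 or more. Its vector arrays alone would not have passed, so its selection favoured a higher value. Without a filter its limma adjusted p was 0.0221. No level is set against that of another gene, because MAS5 signals of different probe sets are not on a common scale. A difference in a bulk culture can come from fewer expressing cells or from less RNA per cell, and these cannot be told apart.

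PTP4A1, the gene of the construct, differed little between the groups. Its 4 probe sets gave log2 fold changes of 0.06 to 0.15 and 0 were called (limma adjusted p of 0.05 or less) or had an unadjusted p under 0.05, with every lower interval bound below 0. On 200730_s_at the groups did not overlap, at 2750 to 2825 on vector arrays and 3270 and 2837 on the arrays labelled PRL-1. On the other probe sets they overlapped. The paper states that earlier work found raised PRL-1 mRNA and protein in this line. Where the probe sets lie in the transcript is not known here, so directions refer to arrays labelled PRL-1. Vector replicate 3 stood apart, with correlations of 0.938 to 0.947 with the other arrays, against 0.954 to 0.964 among those. Without it some uncalled kinesins changed sign on their brightest probe set. These were KIF12 from 0.50 to -0.32, KIF9 from 0.16 to -0.03, KIF1C from 0.07 to -0.08, KIF3C from -0.09 to 0.04 and KIF3B from -0.07 to 0.01 (log2 fold change), and also KIF13A and KIF13B, at 0.03 and -0.10 with all arrays. No direction is read for these genes. As to the labelled origin, 4 of 5 embryonic kidney genes were on the array and passed the filter, among them PAX2 at 218 to 488. LHX1 passed it through vector arrays alone.

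KIF1A was the kinesin called, with a higher signal on both arrays labelled PRL-1, and 0 kinesins were called lower. Of the 66 probe sets 1 was therefore called and 65 were not, while over all 33818 probe sets tested 65 (0.192%) were called, 20 higher (0.0591%) and 45 lower (0.133%). Counted by gene, 1 of 35 kinesins and 44 of 14546 named genes (0.302%) had a called probe set. The lowest limma adjusted p among the uncalled kinesin probe sets was 0.312. Below the threshold, 10 kinesin probe sets (15.2%) had an unadjusted p under 0.05, against 9.72% of all probe sets, and 9 of these were lower, where 5.33% of all probe sets were. The methods' t-test, the one the authors used, was run here on the 33818 probe sets with a call at 0.05. It called 0 of all of them, and so 0 kinesin probe sets. At an unadjusted p under 0.05 it gave 13 kinesin probe sets. The share over all probe sets was not counted for that test. Its counts at that level, here and below, are therefore not read as a result about the members. The authors instead kept probe sets by MAS5 presence calls and used a looser threshold, so the counts are not those of their procedure. Without vector replicate 3, limma left 12 lower and 1 higher at an unadjusted p under 0.05. With or without that array, 47 of 66 probe sets lay below 0. With all arrays, the 47 include those of KIF19, KIF25 and KIF6 that passed the filter through vector arrays alone.

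Most kinesin values lay slightly below 0. The median log2 fold change over 35 genes, each read from its brightest tested probe set, was -0.14, with quartiles of -0.30 and 0.07. Over all 14546 genes the median was -0.03, with quartiles of -0.23 and 0.14. Of the kinesins 24 lay below 0 and 11 above (68.6% below), against 55.2% below among all genes. The 24 include KIF19 and KIF25, whose selection through vector arrays alone built in a lower value. The median of the kinesins, set against the vector mean, was 0.03, 0.01 and 0.01 on the vector arrays and -0.14 and -0.18 on the arrays labelled PRL-1. The corresponding medians of all genes were -0.01, -0.01 and 0.05, and -0.04 and 0.00. Both arrays labelled PRL-1 thus held lower kinesin medians than any vector array. The same was seen for the mitotic kinesins and for the others, but not for the transport kinesins. Their medians were -0.02, -0.13 and 0.03 on the vector arrays and -0.10 and -0.02 on the arrays labelled PRL-1. These medians describe lists and were not tested.

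The groups did not overlap in 29 of 66 kinesin probe sets (43.9%), against 28.9% of all probe sets. In 25 both arrays labelled PRL-1 lay below every vector array (37.9%, against 16.1% of all) and in 4 they lay above (12.8% of all). The 25 include KIF6 1562639_at and 232695_at, which passed the filter through vector arrays alone, so a lower value was built in there. The 95% interval of the fold change lay within a doubling either way for 44 of 66 probe sets (66.7%, against 70.3% of all) and for 28 of 35 genes. For those genes a change of more than a doubling lay outside the interval, whereas smaller changes were within it.

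**Figure D1:**
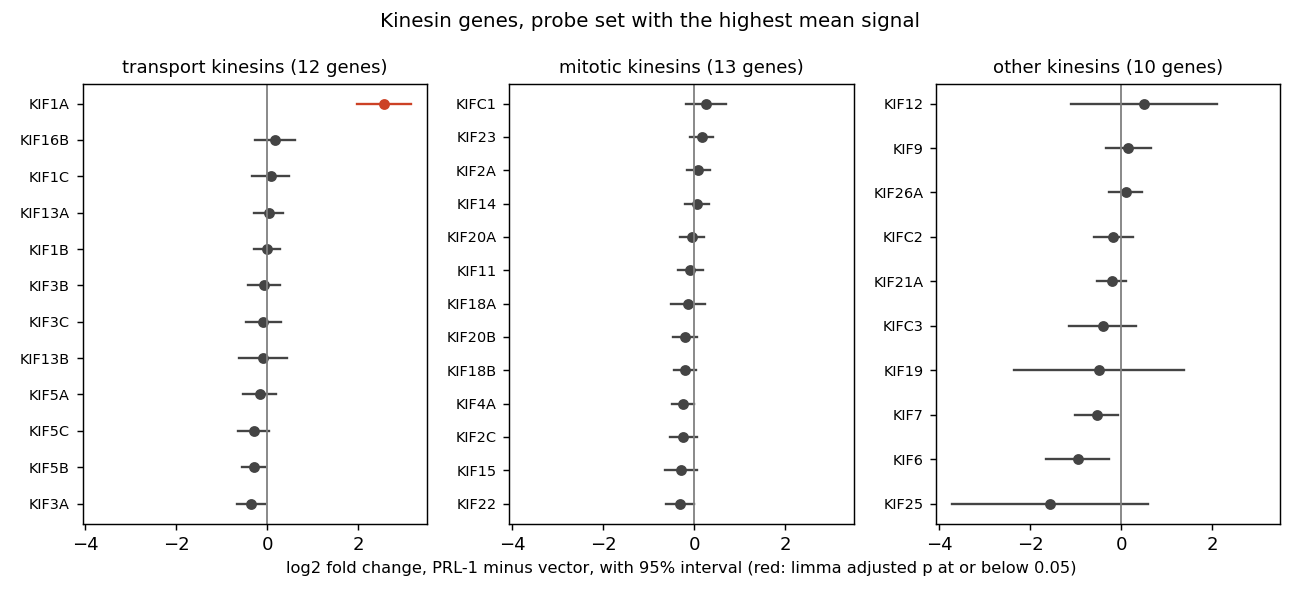
Log2 fold change of each tested kinesin gene, arrays labelled PRL-1 minus vector arrays, read from the probe set with the highest mean signal. Points are limma estimates, bars are 95% intervals, and the vertical line marks 0. KIF1A at 2.57 is the only gene called, and the widest intervals belong to KIF25, KIF19 and KIF12.

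Among the KIF1 group, KIF1A, a motor that carries synaptic vesicle precursors in axons, was the member that rose. Its probe set 225482_at read 93.7, 76.9 and 101.8 on the vector arrays and 585.5 and 489.8 on the arrays labelled PRL-1. The ranges were far apart, with every vector array at about the filter limit and both arrays labelled PRL-1 well above it. The means were 90.8 ± 12.7 (SD, n = 3) and 538 ± 67.6 (SD, n = 2), a log2 fold change of 2.57 (SE 0.26, 95% interval 1.98 to 3.16, limma adjusted p = 0.00804). The fold was 5.94, or 5.32 with the 2 vector signals under 100 set to 100. The call was lost when either array labelled PRL-1 was left out (log2 fold change 2.44, adjusted p = 0.357 without replicate 1, and 2.70, adjusted p = 0.182 without replicate 2).

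The other probe sets of KIF1A did not show a difference of that size. Probe set 203849_s_at read 82.2, 81.7 and 162.5 on the vector arrays and 148.1 and 134.1 on the arrays labelled PRL-1. Vector replicate 3, the array that stood apart, was the highest of all 5, so the groups overlapped. Without it both arrays labelled PRL-1 lay above the remaining vector arrays. Over all 5 arrays the log2 fold change was 0.45 (95% interval -0.52 to 1.43, limma adjusted p = 0.769). That interval ends below the interval of 225482_at. The third, 203850_s_at, was not tested, since it read 22.9 to 39.6 on all arrays. Which parts of the transcript these probe sets cover is not known here, and the reason for the disagreement was not tested.

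KIF1A is best known from neurons, so neuronal markers were read beside it. Of 14 markers 10 passed the filter and 0 were called by limma. Their median log2 fold change was -0.27, within a range of -1.48 to 0.35. Over the 22 probe sets tested, 1 had an unadjusted p under 0.05 by limma (4.55%, against 9.72% of all probe sets) and 0 by the methods' t-test. DCX, ELAVL3, NEFM and STMN2 did not reach the filter on any probe set. The summed signal of the list was 72409 to 86874 on vector arrays and 83701 to 87360.2 on the arrays labelled PRL-1, overlapping ranges, and NEFL and TUBB3 made up most of it, so it says little of the other markers.

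KIF1B, which carries mitochondria and synaptic vesicle precursors, was measured by 4 tested probe sets that all lay between -0.31 and -0.01. The brightest read 2301, 2161 and 1889 on the vector arrays and 2067 and 2119 on the arrays labelled PRL-1, which fell inside the vector range (log2 fold change -0.01, limma adjusted p = 0.984). Probe set 209234_at read 1481, 1312 and 1377 against 1144 and 1096, groups that did not overlap (log2 fold change -0.31, limma adjusted p = 0.456). KIF1C, a widely expressed vesicle motor, read 891, 998 and 688 against 962 and 822 on its brightest probe set, with overlapping groups (log2 fold change 0.07, limma adjusted p = 0.932). The large difference of 225482_at was therefore not shared by its relatives: the interval of KIF1B ended at 0.27 and that of KIF1C at 0.47.

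**Figure D2:**
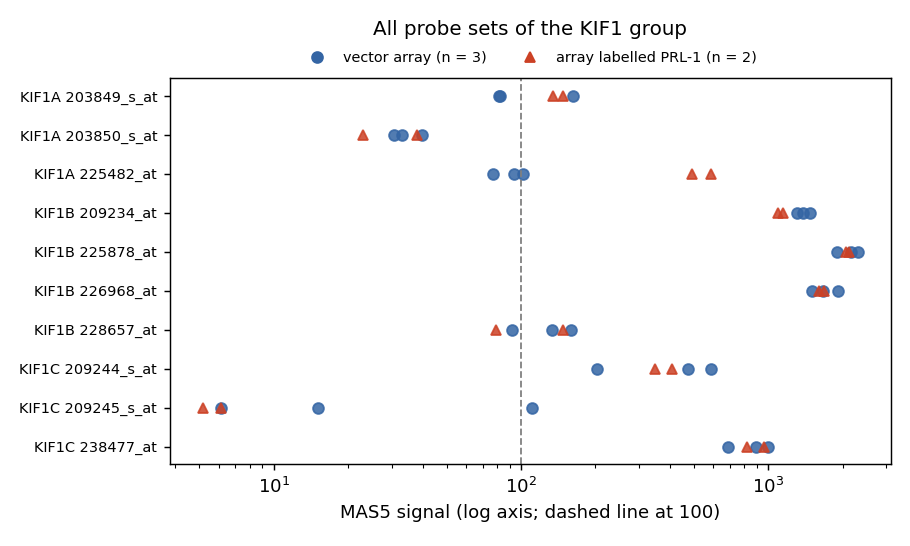
MAS5 signal (log axis) of all 10 probe sets of KIF1A, KIF1B and KIF1C on each array, vector as circles (n = 3) and arrays labelled PRL-1 as triangles (n = 2). The dashed line marks the signal minimum of 100. KIF1A 225482_at is the row in which the triangles, at 489.8 and 585.5, stand far from the circles, at 76.9 to 101.8.

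The remaining kinesin-3 motors, which carry endosomal and membrane cargo, did not separate the groups. KIF16B, a motor of early endosomes, had a log2 fold change of 0.17 (limma adjusted p = 0.813). KIF13A, an endosomal motor, was at 0.03 (limma adjusted p = 0.963) and KIF13B was at -0.10 (limma adjusted p = 0.918). Both changed sign without vector replicate 3, so no direction is read for them. Over the 16 tested probe sets of the kinesin-3 family 8 lay below 0 and 8 above.

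In the KIF3 group, motors of ciliary and axonal transport, 5 of 6 tested probe sets lay below 0 and 0 were called. By limma 1 had an unadjusted p under 0.05 (16.7%, against 9.72% of all probe sets). KIF3A, the partner of KIF3B or KIF3C in the dimeric motor, read 1054, 1234 and 1010 on the vector arrays and 858 and 844 on the arrays labelled PRL-1. Both of the latter lay below all vector arrays, with a log2 fold change of -0.36 (SE 0.14, limma adjusted p = 0.444). Its second probe set, 213623_at, overlapped between the groups (log2 fold change -0.13). KIF3B read 741, 676 and 838 against 759 and 665 (log2 fold change -0.07, limma adjusted p = 0.903). Its other probe set, 225205_at, gave 0.17 with groups that did not overlap, so the pair differed in sign. KIF3C, a neuron-enriched partner of KIF3A, read 731, 716 and 961 against 693 and 802, again overlapping (log2 fold change -0.09, limma adjusted p = 0.891). KIFAP3, the accessory subunit that binds the KIF3 dimer and is not a motor, was at -0.14 (limma adjusted p = 0.769).

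The KIF5 group, the heavy chains of conventional kinesin, lay lowest among the transport groups, with all 8 tested probe sets below 0 and 7 of them without overlap (87.5%, against 16.1% of all probe sets in that direction). None was called, and the median over the 3 genes was -0.30. By limma 3 had an unadjusted p under 0.05 (37.5%, against 9.72% of all probe sets), and by the methods' t-test 5. KIF5B, the ubiquitous heavy chain, read 13232, 14311 and 12977 on the vector arrays and 10378 and 11542 on the arrays labelled PRL-1. Both of the latter lay below the vector range, with a log2 fold change of -0.30 (SE 0.11, 95% interval -0.56 to -0.05, limma adjusted p = 0.443). Probe set 224662_at of KIF5B read 6154, 6435 and 5751 against 4747 and 4715 (log2 fold change -0.37, SE 0.11, limma adjusted p = 0.312). The third, 201992_s_at, read 1454, 1499 and 1357 against 1209 and 1205 (log2 fold change -0.25, limma adjusted p = 0.53). The 3 KIF5B probe sets thus shared their sign, and none passed the threshold under any alternative. The adjusted p of 224662_at ranged from 0.0511, without vector replicate 3, to 0.971, without PRL-1 replicate 1.

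The neuronal heavy chains lay on the same side. KIF5C read 1049, 976 and 1241 on the vector arrays and 946 and 820 on the arrays labelled PRL-1 by its brightest probe set (log2 fold change -0.30, limma adjusted p = 0.56). Its second probe set, 203129_s_at, read 303, 360 and 390 against 218 and 230 (log2 fold change -0.64, SE 0.20, limma adjusted p = 0.349). In both the arrays labelled PRL-1 were the lowest. KIF5A read 485, 437 and 519 against 427 and 423, close to the lowest vector array (log2 fold change -0.17, limma adjusted p = 0.758). Its 205318_at overlapped between the groups, with 141, 188 and 284 against 109.7 and 207. That probe set, at -0.38, turned to 0.08 when PRL-1 replicate 1 was left out, the only KIF5 value to change sign under an alternative.

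**Figure D3:**
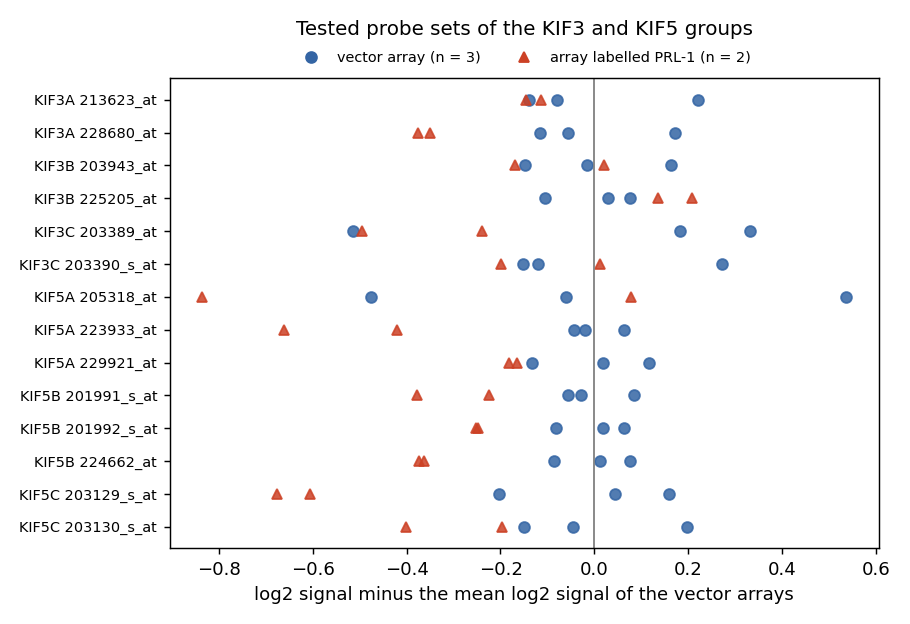
Log2 signal minus the mean log2 signal of the vector arrays for the 14 tested probe sets of the KIF3 and KIF5 groups, vector as circles (n = 3) and arrays labelled PRL-1 as triangles (n = 2). The triangles lie left of all circles in 7 of the 8 KIF5 rows, and in 1 of the 6 KIF3 rows, KIF3A 228680_at.

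The mitotic kinesins showed no call in either direction, and their differences were small. Of 14 genes 13 were tested, with log2 fold changes from -0.32 to 0.26 and a median of -0.14, and 9 lay below 0 against 4 above. The 95% interval lay within a doubling for all 13 genes and for 17 of their 19 probe sets. In 11 of the 19 (57.9%, against 28.9% of all probe sets) the groups did not overlap, 10 of them lower on the arrays labelled PRL-1 (52.6%, against 16.1% of all). By limma 2 had an unadjusted p under 0.05 (10.5%, against 9.72% of all), and by the methods' t-test 3. The lowest limma adjusted p was 0.5. The transport kinesins, in the same terms, had 12 genes tested, a median of -0.08, 8 genes below 0 and 4 above, and 11 of 30 probe sets (36.7%) without overlap, 9 of them lower (30%). Whether the medians of the roles differ was not tested.

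The chromosome-bound motors lay lower on both arrays labelled PRL-1. KIF22, a chromokinesin that pushes chromosome arms, read 1140, 1154 and 1286 on the vector arrays and 867 and 1050.4 on the arrays labelled PRL-1, without overlap (log2 fold change -0.32, limma adjusted p = 0.502). KIF4A, a chromokinesin that also acts at the spindle midzone, read 2743, 2671 and 2793 against 2384 and 2219 (log2 fold change -0.25, limma adjusted p = 0.5). The vector arrays of KIF4A lay close together and both arrays labelled PRL-1 lay below them. KIF4B, a near copy of KIF4A, has no probe set of its own by the annotation used, so its transcripts may contribute to that value.

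Among the spindle motors, KIF11, which slides antiparallel microtubules to keep the spindle bipolar, read 2769, 2701 and 2455 against 2668 and 2311 (log2 fold change -0.09, limma adjusted p = 0.848). KIF15, which can share that task, read 806, 846 and 1029 against 681 and 769.8, below the vector range (log2 fold change -0.30, limma adjusted p = 0.578). KIFC1, a minus-end motor that focuses spindle poles, had the highest mitotic value at 0.26 (limma adjusted p = 0.71). It read 801, 1228 and 1219.9 against 1223 and 1317, so that vector replicate 1 lay far below the other 4 arrays. KIF18A, which damps chromosome oscillations, read 725, 723 and 605 against 546 and 702, with overlap (log2 fold change -0.14, limma adjusted p = 0.821). KIF18B, which trims astral microtubules, read 3195, 2963 and 3224 against 2688 and 2741, without overlap (log2 fold change -0.20, limma adjusted p = 0.584).

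The microtubule depolymerases of the kinesin-13 family differed in sign. KIF2C, which corrects attachments at centromeres, read 2358, 2259.9 and 2835 against 2099 and 2063, without overlap (log2 fold change -0.25, limma adjusted p = 0.58). Its second probe set gave -0.29. KIF2A, a depolymerase at spindle poles, read 3051, 2861 and 2593 against 3029 and 2992, inside the vector range (log2 fold change 0.09, limma adjusted p = 0.837). Its second probe set gave -0.19 without overlap, so no direction could be read for this gene.

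The motors of cytokinesis lay on both sides of 0. KIF23, which forms centralspindlin with RACGAP1, read 2076, 2101 and 1912 on the vector arrays and 2182 and 2359 on the arrays labelled PRL-1. Both of the latter were the highest, the only such case among the brightest mitotic probe sets (log2 fold change 0.16, limma adjusted p = 0.685), whereas its probe set 244427_at gave -0.50. KIF20A, which carries the chromosomal passenger complex to the midzone, read 2692, 3096 and 3139 against 2785 and 2962 (log2 fold change -0.05, limma adjusted p = 0.926). KIF20B read 1499.7, 1474 and 1421 against 1359 and 1194, without overlap (log2 fold change -0.20, limma adjusted p = 0.629). Its dim 234744_x_at gave 0.40 with overlap. KIF14, a midbody motor, read 2130.3, 2056 and 1951 against 2296 and 1994, with overlap (log2 fold change 0.07, limma adjusted p = 0.89). Its second probe set, 236641_at, gave -0.16 without overlap, so no direction is read for KIF14.

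**Figure D4:**
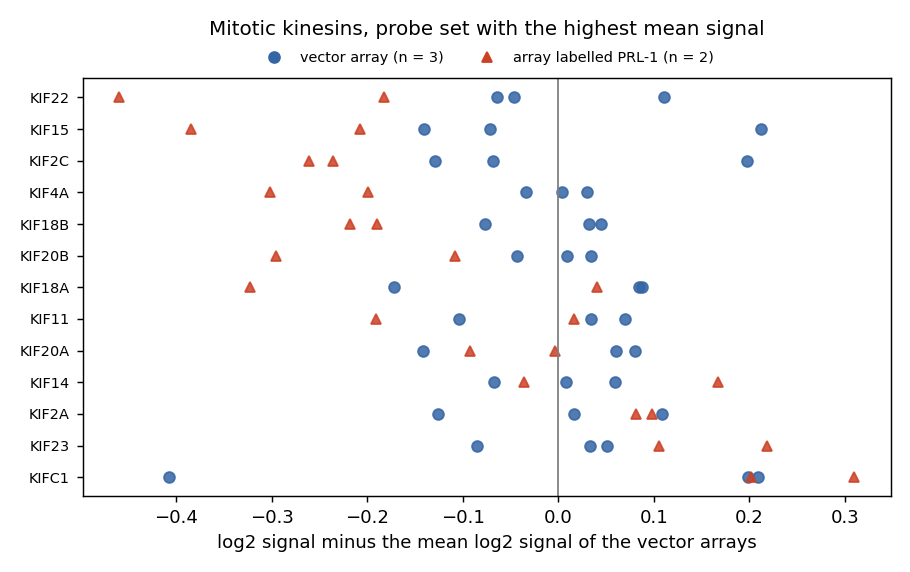
Log2 signal minus the mean log2 signal of the vector arrays for the 13 tested mitotic kinesins, each read from its brightest probe set, vector as circles (n = 3) and arrays labelled PRL-1 as triangles (n = 2). The triangles lie left of all circles for KIF22, KIF15, KIF2C, KIF4A, KIF18B and KIF20B, right of them for KIF23, and no row differs by more than 0.32 in its group means.

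Mitotic kinesins with both promoter elements lay on both sides of 0. KIF11, KIF4A, KIF18A and KIF23, whose sequences are printed above, gave log2 fold changes of -0.09, -0.25, -0.14 and 0.16. The others with both elements in the window, KIF14, KIF18B, KIF20B and KIFC1, gave 0.07, -0.20, -0.20 and 0.26. The tested genes without CHR letters, KIF22, KIF2C, KIF20A and KIF2A, gave -0.32, -0.25, -0.05 and 0.09, and KIF15, with CHR letters alone, gave -0.30.

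The other kinesins had a median of -0.31 over 10 genes and 0 of 17 probe sets called, while 7 genes lay below 0 and 3 above. The 7 include KIF19 and KIF25, which passed the filter through vector arrays alone. An unadjusted p under 0.05 was found for 2 probe sets by limma (11.8%, against 9.72% of all) and for 2 by the methods' t-test. With a filter at 200 in place of 100 their median was -0.03 over 6 genes, so dim probe sets carried most of it. KIF7, a regulator of Hedgehog signalling at the ciliary tip, read 533, 409 and 633 on the vector arrays and 378 and 335 on the arrays labelled PRL-1, without overlap (log2 fold change -0.54, SE 0.21, limma adjusted p = 0.453). KIF21A, which restrains microtubule growth at the cell cortex, read 1814, 2012 and 1584 against 1629 and 1473 (log2 fold change -0.21, limma adjusted p = 0.66). KIF9, a motor linked to motile cilia, read 607, 513 and 376 against 603 and 497 (log2 fold change 0.16, limma adjusted p = 0.845). KIF12 read 214, 270 and 43.6 against 147 and 253, where vector replicate 3 was far below the rest (log2 fold change 0.50, 95% interval -1.10 to 2.11, and -0.32 without that array). Apart from KIF7, the ranges of these genes overlapped.

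KIF6, named after its values were seen, had 4 tested probe sets, of which 1562639_at and 232695_at passed the filter through vector arrays alone, so that a lower value was built in. The brightest read 182, 189 and 189 on the vector arrays and 85.3 and 109 on the arrays labelled PRL-1, without overlap (log2 fold change -0.95, SE 0.30, limma adjusted p = 0.365). With signals under 100 set to 100 its fold was 1.79. KIF25 read 34.9, 101 and 157 against 21 and 36.6, a log2 fold change of -1.56 (limma adjusted p = 0.635) that became a fold of 1.16 with signals under 100 set to 100. It passed the filter through vector arrays alone and its groups overlapped.

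Probe sets of the same gene often lay on the same side. Of 21 genes with at least 2 tested probe sets, 13 had all of them on the same side of 0, 10 below and 3 above. The 3 above were KIF1A, KIF16B and KIF26A. These probe sets share the RNA of the same arrays and are not replicates of the condition.

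The 6 genes that were not tested stayed below the signal minimum of 100 on every array. KIF17, a kinesin-2 of neuronal dendrites and cilia, read 5.86 to 55.5. KIF2B, a kinetochore depolymerase, read 7.46 to 22.7. KIF21B, KIF24 and KIF27 read 11.4 to 23.1, 32.6 to 50.7 and 8.86 to 72.3. The 3 probe sets of KIF26B read 4.04 to 87.2.

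The cargo adaptors and partners of the motors gave 0 calls in each of 3 lists by limma and by the methods' t-test. The latter gave 4, 3 and 3 probe sets at an unadjusted p under 0.05 for the adaptors, for dynein and dynactin, and for the mitotic partners. Of the kinesin adaptors, such as light chains and JIP scaffolds, 19 genes were tested, 13 below 0 and 6 above, with a median of -0.14. Of their 42 probe sets 2 had an unadjusted p under 0.05 by limma (4.76%, against 9.72% of all probe sets), both lower. These were MAPK8IP2 (log2 fold change -0.46, limma adjusted p = 0.501) and MAPK8IP3 (log2 fold change -0.35, limma adjusted p = 0.504), which encode JIP scaffolds that link kinesin-1 to cargo. Other tested probe sets of both genes did not share this. MAPK8IP2 205050_s_at gave -0.09 with overlap, and MAPK8IP3 216139_s_at gave 0.47 without overlap. Of dynein and dynactin, the machinery of minus-end transport, 20 genes were tested, with a median of 0.03. By limma 6 of their 49 probe sets were at an unadjusted p under 0.05 (12.2%, against 9.72% of all), 3 in each direction. DYNLT3, a dynein light chain, read 2664, 2388 and 3201 on the vector arrays and 3770.2 and 3799 on the arrays labelled PRL-1, without overlap (log2 fold change 0.47, limma adjusted p = 0.323). Without vector replicate 3 it was called at 0.59 (limma adjusted p = 0.0242). In that fit 313 of all 33818 probe sets (0.926%) were called, against 65 with all arrays. DYNLL2, a dynein light chain that also binds many other proteins, was at -0.32 on its brightest probe set (limma adjusted p = 0.436) and at -0.41 on 229106_at. Its 238467_at, with the smallest adjusted p of the 3, gave -0.76 (limma adjusted p = 0.374), which was -1.16 when PRL-1 replicate 1 was left out and -0.36 when replicate 2 was.

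Of the mitotic partners 16 genes were tested, with a median of -0.05. By limma 5 of their 29 probe sets were at an unadjusted p under 0.05 (17.2%, against 9.72% of all), 2 lower and 3 higher. AURKA, the kinase of spindle pole maturation, read 2850.3, 2761 and 2434 on the vector arrays and 4051 and 3818 on the arrays labelled PRL-1 by 208079_s_at. Both of the latter lay above every vector array (log2 fold change 0.56, limma adjusted p = 0.198), and without vector replicate 3 the probe set was called at 0.49 (limma adjusted p = 0.0381). That fit called 313 of all probe sets (0.926%), against 65 with all arrays. Probe set 208079_s_at is shown for its adjusted p, the smallest of the list. The brightest of AURKA, 204092_s_at, gave 0.33 (limma adjusted p = 0.474) and was not called without vector replicate 3 (0.23, limma adjusted p = 0.291), and 208080_at gave 0.01. CKAP5, a microtubule polymerase, was at -0.38 (limma adjusted p = 0.298). CENPE, a kinetochore kinesin whose symbol lies outside the rule, read 1286, 1283 and 1469 against 1181 and 1173 (log2 fold change -0.19, limma adjusted p = 0.663), within the range of the mitotic kinesins.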

How the data were processed

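RNA of 5 HEK293 cultures was measured on HG-U133 Plus 2.0 arrays. The authors deposited MAS5 signals, a linear intensity per probe set, made with the affy library under default parameters, and every array had a mean of 500 once 2% had been trimmed from each end. MAS5 subtracts a mismatch estimate, which makes signals near background unstable. The number of arrays limits the precision, and read depth does not apply.

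Of 54675 probe sets, 62 controls were left out, and 33818 at a signal of at least 100 on at least 2 arrays were tested. Symbols came from the platform annotation, updated by gene identifier to the GRCh38.p14 gene table. The model was fitted to log2 signals by lmFit and eBayes of limma 3.58.1 (R 4.3.3), with an intensity trend and with group as its term. Tests were two-sided, with Benjamini-Hochberg adjustment over all tested probe sets and a call at 0.05. A gene was read from the brightest of its tested probe sets, by mean log2 signal. The fit was tested on simulated data. KIF4B and KIF28P are not annotated to any probe set used.

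Members, lists and alternatives were chosen with earlier results of these data known. The rule for named genes took called members, the KIF1, KIF3 and KIF5 groups, the mitotic kinesins, the 2 highest and 2 lowest of the others (mean signal of 200 or more in either group), and 2 members with the smallest adjusted p per partner list. KIF6, KIF25, KIFAP3, CENPE and the remaining kinesin-3 genes were added after their values were seen. Alternatives covered the filter, quantile normalization, an offset of 32, a replicate block, median centring, array weights, no trend, the methods' t-test, the choice of probe set and leaving out each array.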

Additional observations from a re-analysis of the deposited data

How the results depend on the processing

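With 2 arrays labelled PRL-1 the call of KIF1A 225482_at was not stable, while its log2 fold change stayed between 2.21 and 2.70. Its 2.57 lost the call without an intensity trend (adjusted p = 0.0627) and by the methods' t-test (adjusted p = 0.262), so that 0 kinesin probe sets and 0 kinesin genes were called there. Leaving out each array in turn gave 2.44 to 2.70 and 0 to 1 kinesin probe sets and genes called, with 0 when either array labelled PRL-1 was left out. Those fits take the spread of the lone array from the vector group. With the other alternatives, its limma adjusted p was 7.10e-04 to 0.0221. The filter at 200 (limma adjusted p = 0.015) was passed through the arrays labelled PRL-1 alone, so a higher value was built in there.

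The median of the mitotic kinesins, -0.14, moved to -0.20 without _x_at and _s_at probe sets, to -0.10 with median centring, and to between -0.18 and -0.10 when an array was left out. The median of the other kinesins, -0.31, became -0.20 without a filter, -0.03 with a filter at 200 and -0.23 with array weights, and lay between -0.32 and -0.15 when an array was left out. The median of the transport kinesins, -0.08, lay between -0.16 (without vector replicate 2) and -0.02. Median centring left 3 lower kinesin probe sets at an unadjusted p under 0.05 in place of 9. All 25 other named kinesins stayed uncalled in all 350 values under alternatives. The medians of the 3 roles stayed below 0 with quantile normalization, median centring and the offset. The cause of these shifts was not tested.

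Whether the replicate numbers pair the cultures is not known. The difference between replicates 1 and 2 correlated at 0.00449 between the groups, and 2 pairs cannot decide it. In a replicate block vector replicate 3 has no partner. The log2 fold changes of the block therefore equal those without that array, and the block is not a separate result. With a replicate block KIF1A gave 2.66 (adjusted p = 0.00252), 2 partner genes (AURKA and DYNLT3) were called in place of 0, and 448 probe sets of all in place of 65. The same 2 partner genes were called with array weights, and 0 to 2 when an array was left out. Calls over all probe sets were 49 without a filter, 49 with quantile normalization, 9 without the trend, 275 with array weights, 0 by the methods' t-test, and 11 to 313 when an array was left out.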

Other observations

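KIF1A lies near the end of the long arm of chromosome 2, and its neighbours were read beside it. Of the 10 protein-coding genes on each side in the GRCh38.p14 gene order, 14 of 20 were tested by 32 probe sets. None was called by limma (lowest adjusted p = 0.292) or by the methods' t-test, and 3 probe sets had an unadjusted p under 0.05 by each. For limma this was 9.38%, against 9.72% of all probe sets. Their median log2 fold change was 0.16, within a range of -1.61 to 0.82.

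PAX2, a transcription factor of kidney development, read 365, 308 and 488 on the vector arrays and 233 and 218 on the arrays labelled PRL-1 by its brightest probe set, without overlap (log2 fold change -0.75, limma adjusted p = 0.341). Its second probe set overlapped (log2 fold change -0.13). LHX1 was at -0.31, but it passed the filter through vector arrays alone, so a lower value was built in. Its fold was 1.04 with signals under 100 set to 100. WT1 and EYA1, of the same list, lay above 0 at 0.16 and 0.25, and 0 of the 4 genes were called. Of their 6 probe sets 1 had an unadjusted p under 0.05 by limma (16.7%, against 9.72% of all probe sets) and 0 by the methods' t-test. The summed signal of the 4 kidney genes overlapped between the groups, at 1497 to 1693 and 1509.6 to 1556.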
